A study of Mus musculus with 6 samples.

Results

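Astrocyte-enriched genes are genes that the mouse brain transcribes mainly in astrocytes, and 33 of them, given by symbol, were followed here among the 55357 genes of the count data. All 33 passed the filter on low counts and belong to the 21876 genes tested. The data were RNA-seq counts of 6 libraries of primary neuronal cultures, prepared from the cortex and hippocampus of wild type C57BL/6N mouse embryos at embryonic day 18. At day in vitro 4 (DIV4), 3 cultures received lentiviral particles with a control or scrambled shRNA (shCtrl) and 3 received particles with an shRNA against Pla2g4e (shPla2g4e), and all were collected at DIV14. The comparison asks what a lowered level of Pla2g4e, a calcium-dependent N-acyltransferase, does to transcript levels during neuronal maturation. The shRNA lowers the transcript and deletes nothing, 1 shRNA sequence (sh2) was used, and cortical and hippocampal cells were mixed. The labels call the cells neurons, and nothing in them says whether replicates came from separate preparations, so that p-values measure at most the spread between these libraries.

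Astrocytes are the glial cells that clear glutamate and GABA from around synapses, buffer potassium and water, couple to each other through gap junctions and supply neurons with metabolites and lipoproteins. In cultures from late embryos they arise from precursors that continue to divide and to mature while the neurons grow, and contact with neurons is known to raise several of the transporter genes. The genes below are described by these roles. Some of them, such as Sparcl1 and Clu, are also transcribed in neurons.

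Each library held 17054717 to 23570180 counted reads, and levels are given as CPM, reads of the gene scaled by the TMM library size. Pla2g4e itself stood at 38.0, 35.1 and 35.4 CPM in shCtrl libraries 1, 2 and 3 and at 21.8, 14.2 and 18.7 CPM in shPla2g4e libraries 1, 2 and 3. That was a log2 fold change of −0.99 ± 0.13 (standard error, 3 libraries a group; edgeR's quasi-likelihood test, adjusted p = 1.24e-04). The labelled cell type was checked against 15 neuron markers, whose summed level was 7633 to 8403 CPM in shCtrl and 7121 to 7620 CPM in shPla2g4e. The 33 astrocyte-enriched genes summed to 7907, 8293 and 9634 CPM in shCtrl and to 6895, 6363 and 8844 CPM in shPla2g4e, so that the cultures held transcripts of both cell types. Of 15 microglia markers, 5 were under 1 CPM in every library, and their summed level was 25.6 to 39.1 CPM in shCtrl and 26.5 to 29.6 CPM in shPla2g4e. Among 12 mural, endothelial and fibroblast markers, the endothelial marker Cldn5 was at 0 in every library and the sum was 51.1 to 90.1 CPM in shCtrl and 56.1 to 108.6 CPM in shPla2g4e.

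One feature of the libraries touches every result below. Replicate 3 stood above both other libraries of its own group for 26 of the 33 genes in shCtrl and for 29 of 33 in shPla2g4e. Against the mean of those libraries, its median log2 difference over the 33 genes was 0.27 in shCtrl and 0.53 in shPla2g4e. Over all genes tested these medians were 0.007 and 0.006. For 23 of the 33 genes (69.7%) replicate 3 was the highest library of both groups, against 16.6% of all genes. Other measures moved with replicate 3 in both groups, and their part in the results was not tested. The share of reads on mitochondrial genes was highest there, at 3.62% in shCtrl 3 and 3.79% in shPla2g4e 3, against at most 2.89% in the other shCtrl libraries and at most 3.53% in the other shPla2g4e libraries. The summed neuron markers were lowest in replicate 3 (7633 and 7121 CPM), and the summed mural, endothelial and fibroblast markers were highest (90.1 and 108.6 CPM). In shPla2g4e the neuron sum of replicate 2 was nearly as low, at 7156 CPM, and that of replicate 1 was 7620 CPM. Both groups carry the numbers 1 to 3 in their labels, and the deviations of libraries of the same number went together across genes, least so for replicate 2. For this reason fold changes are also given within pairs of the same number, from a fit with the replicate number as a block. The p-values of this blocked fit lean on the spread of other genes and do not measure the spread between a gene's 3 pairs. For Glul the log2 ratios of the pairs were −0.77, −1.25 and −0.23, but the standard error with the block was 0.080.

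**Figure D1:**
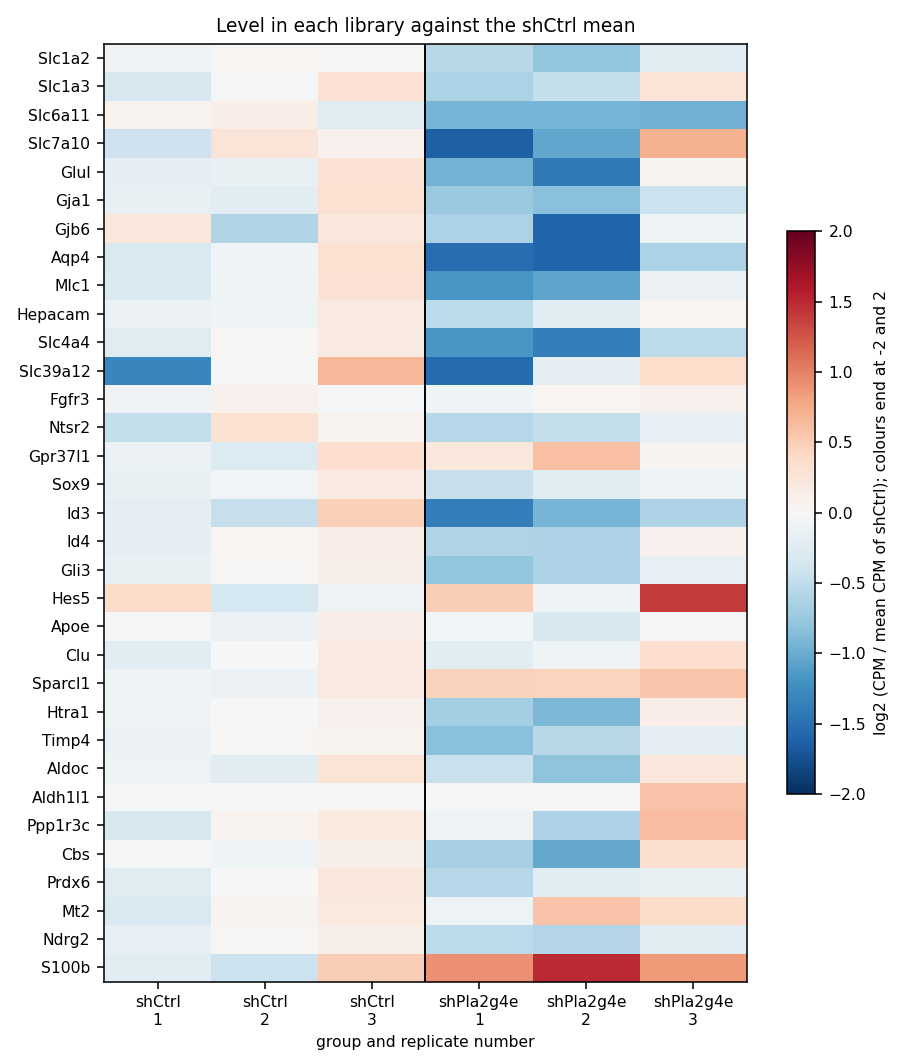
Level of each of the 33 astrocyte-enriched genes in each of the 6 libraries, as log2 of its CPM over the mean CPM of the 3 shCtrl libraries (blue below, red above; colours end at -2 and 2). Columns are the 3 shCtrl and 3 shPla2g4e libraries by replicate number. Most genes are bluest in shPla2g4e 1 and 2, and replicate 3 is the highest library of both groups for 23 of the 33 genes.

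The genes as a group lay lower in the knockdown. Of the 33, 24 had a log2 fold change below 0 (72.7%, against 46.5% of all genes), and their median was −0.34, against 0.029 over all genes. At an adjusted p under 0.01, 6 were called lower (18.2%), while 4.0% of all genes were called lower, and 1 was called higher, while 2.48% of all genes were called higher. With the replicate block 19 were called lower, beside 9.02% of all genes, and 2 higher, beside 6.5% of all genes. In these bulk libraries, fewer astrocytes and less RNA of these genes per astrocyte cannot be told apart.

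Pair by pair, the median log2 ratio of the 33 genes was −0.36 in pair 1, −0.59 in pair 2 and −0.23 in pair 3, where that of all genes was 0.010, 0.013 and 0.006. Of the 33, 21 were lower in all 3 pairs (22.6% of all genes were) and 4 were higher in all 3 (23.2% of all genes). The 3 shPla2g4e libraries lay entirely below the 3 shCtrl libraries for 9 genes, beside 14.6% of all genes, and entirely above for 2, beside 15.5% of all genes. The count of genes called lower was 6, 5 and 4 without shCtrl 1, 2 and 3 (2.51%, 2.07% and 4.19% of all genes). It fell from 6 to 3 without shPla2g4e 1 (2.57% of all genes were called lower there) and to 3 without shPla2g4e 2 (2.65%), with a median log2 fold change of −0.21 and −0.23. Without shPla2g4e 3 it was 16 (4.31% of all genes), with a median of −0.61. Over all genes the medians of these 3 fits were 0.029, 0.017 and 0.020. With the block and without pair 1, 13 were called lower (6.63% of all genes were) and 2 higher (4.74%). Without pair 2 these counts were 10 (5.26% of all genes) and 1 (3.15%), and without pair 3 they were 18 (8.75%) and 3 (5.52%). With a pair left out, the blocked fit leans even more on the spread of other genes, and its p-values can fall. For Glul, among these genes, the adjusted p of the blocked edgeR fit was 9.18e-12 with all pairs and 8.84e-45 without pair 3. A call kept with a pair left out therefore does not show that replicates agree.

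**Figure D2:**
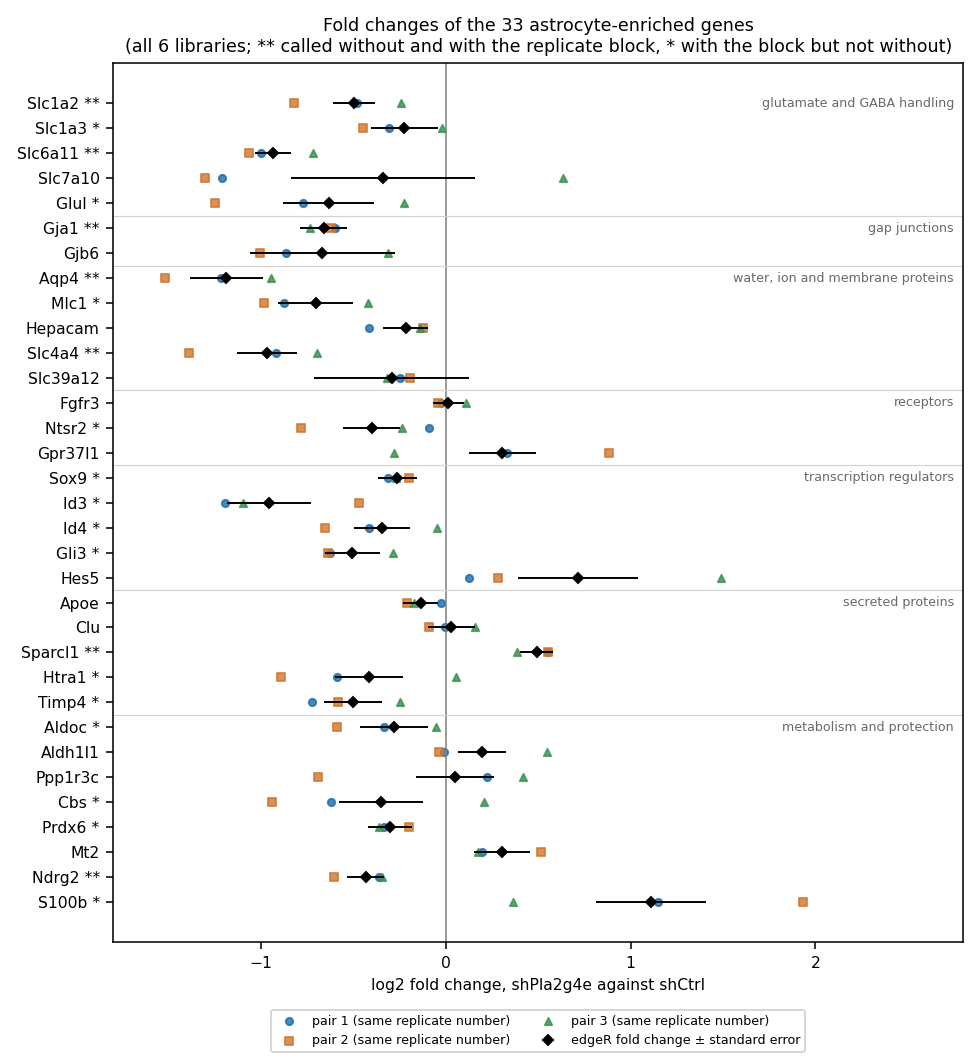
Log2 fold change of shPla2g4e against shCtrl for the 33 genes, grouped by role. Black diamonds with bars are edgeR's fold change ± standard error (3 libraries a group) and coloured symbols are the log2 ratio within each pair of the same replicate number. The called genes reach from −1.19 for Aqp4 to 0.49 for Sparcl1, and for many genes the pair 3 symbol lies nearest to 0.

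The shRNA itself can pair with other transcripts through its seed, as a microRNA does, so the guide strand and the places in these genes with the complementary letters are shown first. The guide strand of sh2 is given 5′ to 3′ with its seed, bases 2 to 8, in capitals, as the study designed it. The sites below are the stretches of the 3′ UTR, read in the longest transcript that codes for the protein (GENCODE vM21, built on GRCm38), that hold the 7 complementary letters, in capitals, with 11 bases on either side.
sh2 guide: tTGGCCACcaccatcttcc
Slc1a2, first site: ctgcttagtaaGTGGCCAaatagttaaga
Slc1a2, second site: aagcttggagaGTGGCCAcagtaacccag
Sox9, first site: ccgggccactcGTGGCCAgacggacagca
Sox9, second site: ctgggccccatGTGGCCAgcagatgctgg
Mlc1: tcaggaaaagcGTGGCCAttttcaaacag
Prdx6: cctagtagtggGTGGCCAtttctgaattc
Timp4: accatttggagGTGGCCAaagaaatacaa
Cbs: tcaacctccctGTGGCCAcctctgccaag
Hepacam: tagagactggtGTGGCCActcaccgacga

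These 7 genes are 21.2% of the 33, while 2103 of the 15656 tested genes with a 3′ UTR held such a site (13.4%). Of the 6 genes called lower, only Slc1a2 held one in the 3′ UTR read. The coding sequence of the same transcripts held the letters once in Slc6a11, once in Aqp4 and 2 times in Slc4a4, and in 9 of the 33 genes in all (27.3%, against 25.3% of tested genes). Gja1 and Ndrg2 held them in neither stretch. Over all genes, a site in the 3′ UTR was present in 43.0% of those called lower and in 7.1% of those called higher, and a site in the coding sequence in 38.9% and 22.8%. The match is one of letters, and pairing of the shRNA with these transcripts was not tested.

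Of the 5 genes for taking up and converting transmitters, all had a log2 fold change below 0 (46.5% of all genes did), and Slc6a11 and Slc1a2 were called lower (4.0% of all genes were). Slc6a11, which encodes a GABA transporter of astrocytes, was at 97.5, 102 and 78.6 CPM in shCtrl 1, 2 and 3 and at 48.7, 48.7 and 47.8 CPM in shPla2g4e 1, 2 and 3. The shPla2g4e libraries were nearly equal and all below the shCtrl libraries, of which replicate 3 was the lowest, unlike in most of the other genes. Its log2 fold change was −0.94 ± 0.096 (adjusted p = 1.15e-05, edgeR's quasi-likelihood test), which left 52.3% of the control level, and it was called in all 20 alternative settings.

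Slc1a2 encodes GLT-1, the main glutamate transporter of the forebrain. It was at 1253, 1357 and 1345 CPM in shCtrl and at 897, 768 and 1135 CPM in shPla2g4e. Every knockdown library lay below every control, and replicate 3 was the closest to them. The fold change was −0.50 ± 0.11 on the log2 scale (adjusted p = 0.00778). The call was kept only without shPla2g4e 3 when 1 library at a time was left out, and the adjusted p was 0.0132 without shCtrl 1, 0.0531 without shCtrl 2, 0.0187 without shCtrl 3, 0.0399 without shPla2g4e 1 and 0.0326 without shPla2g4e 2. With the block the adjusted p was 1.69e-09, and the gene was called with any pair left out.

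Slc1a3, the gene of the glutamate transporter GLAST, was at 470.4, 575 and 715 CPM in shCtrl and at 380.4, 422 and 704 CPM in shPla2g4e. The groups overlapped, since shPla2g4e 3 was nearly as high as shCtrl 3. The log2 fold change of −0.23 ± 0.18 did not pass the test (adjusted p = 0.494), and with the block it was −0.26 with an adjusted p of 0.00125. That blocked call was lost without pair 1 (adjusted p = 0.019) and without pair 2 (0.218). Without shPla2g4e 3 the unblocked fit called the gene lower (−0.55, adjusted p = 0.00605).

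Glul encodes glutamine synthetase, which turns the glutamate taken up into glutamine. It was at 659.7, 669 and 906 CPM in shCtrl and at 387, 281 and 774 CPM in shPla2g4e, where replicate 3 again stood far above the other libraries of its group and the groups overlapped. Its fold change was −0.63 ± 0.25 on the log2 scale with an adjusted p of 0.111, and −0.75 with an adjusted p of 9.18e-12 with the block, a call kept with any pair left out. Without shPla2g4e 3 the unblocked fit called it too (−1.16, adjusted p = 1.01e-05). Of the 50-base stretches of the Glul transcript, 14.2% also occur in other genes, among them the pseudogene Glns-ps1, so that its counts are less certain. Slc7a10, an amino acid transporter for serine and glycine, had only 11 to 41 reads a library, 0.460 to 2.34 CPM, and passed no test (adjusted p = 0.738, and 0.446 with the block). Its log2 ratio was −1.21 and −1.30 in pairs 1 and 2 and 0.63 in pair 3. Of its exonic sequence, 17.9% lies opposite Lrp3 on the other strand, whose reads may be counted in it.

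**Figure D3:**
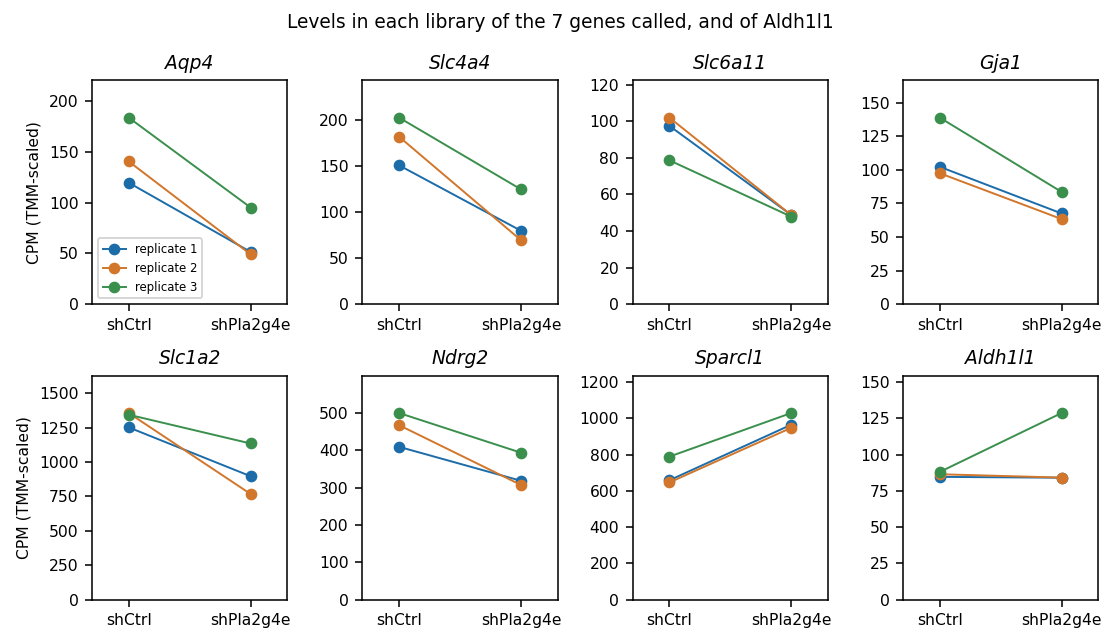
CPM (TMM-scaled, axes from 0) in each library of the 7 genes called and of Aldh1l1, with lines joining libraries of the same replicate number. The 6 genes called lower and Sparcl1 do not overlap between shCtrl and shPla2g4e, while Aldh1l1 differs only in replicate 3.

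The channels and membrane proteins of the astrocyte surface held the largest fold change. Aqp4 encodes the water channel of astrocyte endfeet. It was at 119.6, 141 and 184 CPM in shCtrl and at 51.4, 49.1 and 95.1 CPM in shPla2g4e. The highest knockdown library, replicate 3, stayed below the lowest control. The log2 fold change was −1.19 ± 0.20 (adjusted p = 8.53e-04), which left 43.9% of the control level. It was called whichever single library was left out, with an adjusted p of at most 0.00608, but not by DESeq2 (adjusted p = 0.0124) nor in edgeR's robust fit (0.122).

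Slc4a4 encodes NBCe1, a sodium bicarbonate cotransporter. Its levels were 150.4, 181 and 202 CPM in shCtrl and 79.6, 69.3 and 124 CPM in shPla2g4e, and again no knockdown library reached the lowest control. The fold change was −0.97 ± 0.16 on the log2 scale (adjusted p = 8.53e-04), called without any single library and lost in the robust fit alone (0.0851). Mlc1, which encodes a membrane protein of astrocyte endfeet, was at 139, 160.2 and 207 CPM in shCtrl and at 75.6, 80.9 and 155 CPM in shPla2g4e. Only shPla2g4e 3 reached the range of the controls. Its fold change of −0.71 ± 0.20 missed the threshold (adjusted p = 0.0322) and passed it with the block (−0.76, adjusted p = 2.24e-13), with any pair left out as well. The unblocked fit passed it without shPla2g4e 3 (−1.11, adjusted p = 5.7e-06).

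Hepacam, whose adhesion protein GlialCAM binds the MLC1 protein, was at 53.2 to 86.5 CPM and passed neither test (log2 fold change −0.22 ± 0.12, adjusted p = 0.277, and 0.0192 with the block), although its ratio was below 0 in all 3 pairs. Slc39a12, a zinc transporter gene with 42 to 183 reads a library, was not called either (−0.29 ± 0.42, adjusted p = 0.729). It was at 2.09 CPM in shCtrl 1 and 1.76 CPM in shPla2g4e 1 and at 8.13 and 6.51 CPM in replicate 3, so that replicates differed more than groups.

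Of the gap junction genes, Gja1, the gene of connexin 43, was at 102, 97.5 and 139 CPM in shCtrl and at 67.5, 63.3 and 83.5 CPM in shPla2g4e. The groups did not overlap, and the ratio in the 3 pairs was −0.60, −0.62 and −0.73 on the log2 scale. The fold change was −0.66 ± 0.13 (adjusted p = 0.00242). The call was lost without shPla2g4e 1 (0.0161), without shPla2g4e 2 (0.0121) and in the robust fit (0.0139). Gjb6, the gene of connexin 30, which appears late in astrocyte maturation, had only 13 to 48 reads a library. Its fold change of −0.67 ± 0.39 was of like size, and it was not called (adjusted p = 0.315, and 0.169 with the block).

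With all 6 libraries, none of the 3 receptor genes was called without the block, beside 4.0% of all genes called lower and 2.48% called higher. Ntsr2, the gene of a neurotensin receptor of astrocytes, was at 37.0, 64.1 and 54.1 CPM in shCtrl and at 34.7, 37.2 and 45.9 CPM in shPla2g4e. The groups overlapped through the low level of shCtrl 1. Its log2 fold change of −0.40 ± 0.15 was not called (adjusted p = 0.107), and was called with the block (8.75e-04) but not with pair 2 left out (0.308). Without shCtrl 1 the unblocked fit called it too (−0.59, adjusted p = 0.00648). Fgfr3, a fibroblast growth factor receptor of astrocytes and their precursors, was at 66.0 to 74.6 CPM in all 6 libraries, with a log2 fold change of 0.01 ± 0.083, and 13.9% of its exonic sequence lies opposite a gene of the other strand. Gpr37l1, a G protein-coupled receptor gene of glia, was at 7.75 to 14.3 CPM and was called in neither fit (0.31 ± 0.18, adjusted p = 0.319, and 0.13 with the block). Without pair 3 the blocked fit called it higher (0.60, adjusted p = 0.00248).

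With all 6 libraries, edgeR called 0 of the 5 transcription regulators without the block and 4 lower with it, beside 9.02% of all genes. All 5 had an unadjusted p under 0.05 by edgeR, as did 19 of the 33 genes (57.6%) and 25.7% of all genes. Of the 5, limma after voom called 0 and DESeq2 called Id3. Of the 4 with a blocked call, only Id3 kept the blocked call without pair 1 and without pair 2. Id3, an inhibitor of basic helix-loop-helix factors that BMP signals induce, was at 11.5, 9.56 and 18.2 CPM in shCtrl and at 5.02, 6.89 and 8.51 CPM in shPla2g4e. The groups did not overlap, and the log2 fold change was −0.96 ± 0.23, just outside the threshold (adjusted p = 0.0105, and 4.76e-07 with the block). The blocked call held with any pair left out, and the unblocked fit called the gene without shCtrl 2 (0.0072) and without shPla2g4e 3 (0.00166).

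Id4, an inhibitor of the same family, was at 40.4, 47.2 and 50.4 CPM in shCtrl and at 30.2, 30.0 and 48.8 CPM in shPla2g4e, with a log2 ratio of −0.05 in pair 3. Gli3, a transcription factor of the hedgehog pathway, was at 17.6, 19.9 and 21.4 CPM in shCtrl and at 11.4, 12.8 and 17.5 CPM in shPla2g4e, without overlap by a narrow gap. Sox9, a factor that specifies astrocytes, was at 84.9, 91.1 and 106 CPM in shCtrl and at 68.3, 79.4 and 88.2 CPM in shPla2g4e. All 3 genes were lower in every pair. Their fold changes were −0.35 ± 0.15, −0.51 ± 0.15 and −0.26 ± 0.10 on the log2 scale, and the adjusted p was 0.161, 0.0359 and 0.117 without the block and 0.00109, 2.87e-04 and 0.00297 with it. Left without pair 1 or pair 2, the blocked fit called none of these 3 genes, and without pair 3 it called Id4 and Gli3 but not Sox9 (0.0207). Without shPla2g4e 3 the unblocked fit called Id4 (−0.61, adjusted p = 6.36e-04) and Gli3 (−0.70, 0.0015) lower. Hes5, a target of Notch signals that keeps precursors undifferentiated, had 40 to 118 reads a library and a fold change of 0.71 ± 0.32 that was not called (adjusted p = 0.178, and 0.0406 with the block). Its highest value, 6.74 CPM, was in shPla2g4e 3, and 31.8% of its exonic sequence lies opposite a gene of the other strand.

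The secreted proteins held the one gene called higher and the most abundant gene of the set. Sparcl1 encodes hevin, a matrix protein that promotes the formation of synapses. It was at 658, 646 and 788 CPM in shCtrl and at 965, 947 and 1029 CPM in shPla2g4e, so that all 3 knockdown libraries lay above all 3 controls. The log2 fold change was 0.49 ± 0.089 (adjusted p = 0.00162), 140% of the control level, with log2 ratios of 0.55, 0.55 and 0.38 in pairs 1, 2 and 3. It was called under 19 of the 20 alternatives, and not without shCtrl 2 (adjusted p = 0.0266).

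Apoe, the gene of the main lipoprotein of the brain, was the most abundant per length, at a mean of 1089 CPM per kb of exon in shCtrl and 992 CPM per kb in shPla2g4e. By library it was at 2278, 2153 and 2556 CPM in shCtrl and at 2237, 1859 and 2266 CPM in shPla2g4e. The groups overlapped, and the log2 fold change of −0.14 ± 0.095 was not called (adjusted p = 0.418, and 0.0725 with the block). Clu, the gene of the chaperone clusterin, was not called either, with a fold change of 0.03 ± 0.13 over levels of 476 to 694 CPM.

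Htra1, which encodes a serine protease of the matrix, was at 43.9, 46.96 and 49.6 CPM in shCtrl and at 29.2, 25.2 and 51.6 CPM in shPla2g4e. Its replicate 3 was the highest of all libraries, so that the groups overlapped. Timp4, an inhibitor of matrix metalloproteinases, was at 15.1, 16.6 and 17.2 CPM in shCtrl and at 9.12, 11.1 and 14.5 CPM in shPla2g4e, without overlap. With all 6 libraries both were called with the block and not without it, at a log2 fold change of −0.47 for Htra1 (adjusted p = 1.51e-04, and 0.162 without the block) and −0.52 for Timp4 (7.7e-04, and 0.0432 without it). Htra1 lost the blocked call without pair 2 (0.146), and Timp4 lost it without pair 1 (0.0419) or pair 2 (0.0239). Without shPla2g4e 3 the unblocked fit called both, at −0.78 for Htra1 (3.94e-05) and −0.69 for Timp4 (0.0029).

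Among the genes of metabolism and protection, Ndrg2, a differentiation gene abundant in astrocytes, was called lower. It was at 409, 467 and 499.8 CPM in shCtrl and at 318, 307 and 393 CPM in shPla2g4e, without overlap. The log2 fold change was −0.43 ± 0.10 (adjusted p = 0.0097), close to the threshold. The call was kept without shCtrl 1 and without shPla2g4e 3, and the adjusted p was 0.0577 without shCtrl 2, 0.0333 without shCtrl 3, 0.0575 without shPla2g4e 1 and 0.0465 without shPla2g4e 2. With the block it was 5.25e-08 and the gene was called with any pair left out.

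Aldoc encodes the brain form of the glycolytic enzyme aldolase. It was at 275, 256 and 356 CPM in shCtrl and at 218, 170.0 and 343 CPM in shPla2g4e. Cbs, the gene of cystathionine beta-synthase, which begins the conversion of homocysteine to cysteine, was at 31.9, 30.8 and 35.4 CPM in shCtrl and at 20.7, 16.0 and 40.8 CPM in shPla2g4e. In both genes shPla2g4e 1 and 2 lay below every control and shPla2g4e 3 did not. With all 6 libraries both were called with the block and not without it, with a log2 fold change of −0.32 for Aldoc (adjusted p = 1.34e-04, and 0.375 without the block) and −0.43 for Cbs (0.0022, and 0.365 without it). Aldoc lost the blocked call without pair 2 (0.131), and Cbs lost it without pair 1 (0.0377) or pair 2 (0.406). Without shPla2g4e 3 the unblocked fit called both, at −0.61 for Aldoc (0.00255) and −0.83 for Cbs (1.25e-04).

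Prdx6, which encodes an antioxidant peroxiredoxin, was at 219.6, 257 and 303 CPM in shCtrl and at 174, 224 and 235 CPM in shPla2g4e. The groups overlapped, but the pairs had like ratios of −0.33, −0.20 and −0.36. The log2 fold change was −0.30 in both fits, with an adjusted p of 0.119 without the block and 1.47e-04 with it, and the blocked call held with any pair left out. S100b, a calcium-binding protein gene of astrocytes, was low, with 25 to 104 reads a library. It was at 1.46, 1.26 and 2.40 CPM in shCtrl and at 3.22, 4.81 and 3.09 CPM in shPla2g4e, all of them above the controls. Its log2 fold change was 1.11 ± 0.30 (adjusted p = 0.0211, and 9.63e-04 with the block, a call lost without pair 2, at 0.152). Without shCtrl 3 the unblocked fit called it higher (1.45, adjusted p = 0.00877).

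Aldh1l1, which encodes a folate enzyme and is widely used to mark astrocytes, was at 84.7, 86.5 and 88.0 CPM in shCtrl and at 84.1, 84.1 and 129 CPM in shPla2g4e. The first 5 of these values lay within a few percent of each other and shPla2g4e 3 stood apart. The log2 fold change was 0.19 ± 0.13 (adjusted p = 0.389, and 0.113 with the block), and −0.04 without shPla2g4e 3. Reads of genes on the other strand may add to it, since they overlap 11.05% of its exon bases. Ppp1r3c, which directs a phosphatase to glycogen, was at 42.3 to 99.6 CPM, and its ratio was above 0 in pairs 1 and 3 and −0.69 in pair 2. Mt2, a metallothionein gene, was higher in all 3 pairs at 23.7 to 43.3 CPM, but was not called (0.30 ± 0.15, adjusted p = 0.225, and 0.0119 with the block). Of its exonic sequence, 73.5% lies opposite a gene of the other strand.

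By level per kb of exon in shCtrl, Apoe (1089 CPM per kb) was followed by Sparcl1 (237), Glul (197), Clu (160.3) and Ndrg2 (135). In shPla2g4e the order below Apoe was Sparcl1 (334 CPM per kb), Clu (164), Glul (127) and Ndrg2 (99.97), so that Clu and Glul changed places by their group means. In shPla2g4e 3 Glul stayed slightly above Clu per kb, and neither gene was called with all libraries and no block. The lowest were Gjb6 (0.682 CPM per kb) and Slc7a10 (0.677) in shCtrl. Of the 33 genes, 28 had at least 100 reads in every library, and the other 5, Slc7a10, Gjb6, Slc39a12, Hes5 and S100b, are the ones whose level is known least well.

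**Figure D4:**
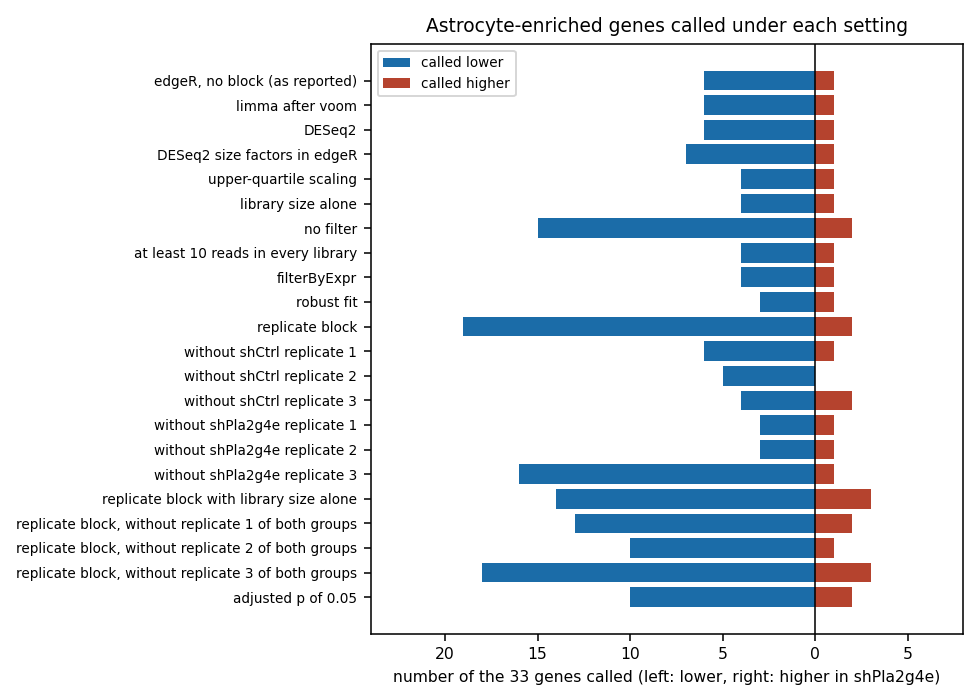
Number of the 33 genes called lower (blue, to the left) and higher (red, to the right) at an adjusted p under 0.01, or under 0.05 in the last bar, under each setting of the analysis. The count of lower calls is 6 without the block and 19 with it, and lies between 3 and 16 when single libraries are left out.

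The pathway was widened with 50 further astrocyte genes. Of these, 2 were called lower (4.0%, the same share as the 4.0% of all genes) and 1 higher (2.0%, near the 2.48% of all genes), so that their calls without the block were no more frequent than over all genes. With the block 17 were called lower (34.0%, beside 9.02% of all genes) and 4 higher (8.0%, beside 6.5%). Their median log2 fold change was −0.16. It was −0.35 without shPla2g4e 3 and −0.21 to −0.12 without any other single library. Tril, a partner of Toll-like receptors, was at 24.01, 29.1 and 25.8 CPM in shCtrl and at 11.0, 14.3 and 18.9 CPM in shPla2g4e (−0.85 ± 0.16, adjusted p = 0.00187, lost without shCtrl 2 at 0.0173). Plpp3, a lipid phosphatase gene, was at 105, 135 and 141 CPM in shCtrl and at 60.8, 68.6 and 106 CPM in shPla2g4e, where replicate 3 touched the range of the controls (−0.70 ± 0.16, adjusted p = 0.00827). Ttyh1, which encodes a membrane protein of the tweety family, was the gene called higher. Its levels were 369, 362 and 375 CPM in shCtrl and 455, 439 and 565 CPM in shPla2g4e (0.40 ± 0.094, adjusted p = 0.00971). With 1 library left out, the call of Plpp3 was lost without shCtrl 2 (0.0482), shCtrl 3 (0.0388), shPla2g4e 1 (0.0453) or shPla2g4e 2 (0.0353). That of Ttyh1 was kept only without shPla2g4e 2, and its adjusted p was otherwise 0.0163 to 0.0664.

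Gfap, the intermediate filament gene of astrocytes, was at 520.1, 674 and 801 CPM in shCtrl and at 372, 338 and 589.5 CPM in shPla2g4e. The groups overlapped, because shPla2g4e 3 lay above shCtrl 1. Its log2 fold change of −0.62 ± 0.17 missed the threshold (adjusted p = 0.0267), passed it without shPla2g4e 3 (−0.91, adjusted p = 7.84e-05) and passed it with the block (−0.64, adjusted p = 6.26e-12).

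Markers of other cells were counted in the same way, and their part in the result was not tested. Over all genes, 4.0% were called lower and 2.48% higher, and 9.02% and 6.5% with the block. Of the 15 neuron markers, 3 were called lower and 2 higher, and 4 and 3 with the block, at a median log2 fold change of −0.10. Of 10 proliferation and progenitor markers, 2 were called lower and 0 higher, and 3 and 0 with the block, at a median of −0.71 and a summed level of 434 to 489.7 CPM in shCtrl and 332 to 363 CPM in shPla2g4e. The 2 called were Dcx, a gene of young neurons, and Top2a, a topoisomerase of dividing cells. Dcx lost its call without shCtrl 2 (0.0119), and Top2a without shCtrl 2 (0.0552), shCtrl 3 (0.0102), shPla2g4e 1 (0.034) or shPla2g4e 2 (0.0218). Of 15 oligodendrocyte lineage markers, 14 were tested and none was called by edgeR in either direction, with a median of 0.22 and 1 called each way with the block. Their median fell to 0.027 without shPla2g4e 2. The 12 microglia markers tested had the lowest median of these lists, −0.77, with 9 below 0 (46.5% of all genes were). With 1 library left out it ran from −1.24 without shPla2g4e 3 to −0.42 without shCtrl 3. Without shCtrl 3 or shPla2g4e 2 the proliferation and progenitor markers had the lower median instead. None of the 12 was called by edgeR without the block, and with it 1 was called lower and 0 higher. The 11 mural, endothelial and fibroblast markers tested had a median of 0.31, none was called without the block, and 3 were called higher with it. The 8 ependymal markers had a median of 0.21 and none was called in either fit. That median ran from −0.10 without shPla2g4e 2 to 0.53 without shCtrl 3. Of the oligodendrocyte, microglia, mural and ependymal lists, 2, 4, 3 and 0 genes had an unadjusted p under 0.05 by edgeR, beside 25.7% of all genes, and limma after voom and DESeq2 called 0 of them.

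The promoters of the genes were read as the 250 bases before and 50 after each RefSeq start (GRCm38.p6), which gave 35 promoters for 28 of the 33 genes. The NFI core TTGGCA, on either strand, was in 4 of the 35 promoters (11.4%) and in 12.1% of promoters of tested genes. The SOX motif AACAAT was in 0 of the 35, against 6.71%, and the RBPJ motif GTGGGAA was in 4 (11.4%, against 6.34%), among them that of Hes5. Both promoters of Aldoc held the RBPJ motif, so that by gene it was in 3 of 28, beside 1039 of 13780 tested genes. The metal response motif TGCGCNC was in 10 of the 35 (28.6%, against 23.8%), with 2 matches each in Mt2, Id3, Slc6a11 and Slc7a10. These counts describe letters in a short window, and with 35 promoters the shares are rough.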

How the data were processed

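The authors prepared stranded poly(A) RNA libraries, ran FastQC 0.11.8, aligned the reads with STAR 2.7.0d and counted exon reads per gene with featureCounts 1.6.0, per the submitters' processing notes and the file headers. They deposited raw counts, 1 file per library, with no normalization. The deposited counts carry GENCODE M28 with GRCm39 coordinates, although mm10 and GENCODE M18 stand in the paper's methods. Strand and read pairing were not set in the counting command, so antisense reads may be included in a gene's count, and both mates of a fragment add to it. Symbols came from GENCODE vM21 (GRCm38) and matched 52081 of the 55357 gene identifiers.

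Counts were tested with edgeR 4.0.16 in R 4.3.3 (TMM, estimateDisp, glmQLFit, glmQLFTest), 3 shCtrl against 3 shPla2g4e libraries, over the 21876 genes that had 6 or more reads in any library. P-values were adjusted by Benjamini-Hochberg over all of these genes, and genes under 0.01 were called. Standard errors came from the F statistic. The script was tested on simulated data. Alternatives were limma 3.58.1 after voom, DESeq2 1.42.0, other scalings and filters, a robust fit, a threshold of 0.05, each library left out in turn, and the replicate number as a block. The deviations from the group means, over 10906 genes whose mean log2 CPM was 3 or more, had correlations of 0.393, 0.189 and 0.463 for same-numbered libraries and of −0.394 to 0.108 for the rest. The numbers come from the labels, and they were taken as pairs on this check, whose rule was a correlation over 0.1 for each same number. The libraries shCtrl 1 and shPla2g4e 2 (0.108) would also pass it. Deviations from a group mean cancel within the group, which by itself pushes the other correlations down. The check therefore cannot establish that the libraries are pairs. No 2 libraries differed by less than the sampling noise. CPM rests on 17054717 to 23570180 reads a library, which limits genes with few reads.

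The 33 genes, the other gene lists and their roles were chosen with earlier results of these data known, so that no test was made over a list. All 33 genes are accounted for. Every library is printed for genes called in either fit and for the 3 most abundant per kb, and the rest are given by range, except Aldh1l1, whose libraries were printed after its values were seen, and Slc39a12, Slc7a10 and Hes5, for which some were. From further astrocyte and reactive astrocyte genes, the 3 with the smallest p and Gfap are named. Dcx and Top2a were named after their values were seen. Seed sites were read from GENCODE vM21 transcripts and promoters from a RefSeq table. Shared stretches are 50-base stretches of a transcript found in another gene.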

Additional observations from a re-analysis of the deposited data

How the results depend on the processing

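Over the 33 genes and 20 alternative settings, 543 of 660 fold changes kept direction and side of the threshold, 24 lost a call, 75 gained one and 18 changed sign. The blocks with library size alone or without a pair were chosen after seeing the data. Lower and higher calls among the 33 genes (6 and 1) came to 15 and 2 with no filter, 10 and 2 at a threshold of 0.05, 3 and 1 in the robust fit, 19 and 2 with the replicate block, 14 and 3 with the block and library size alone, and 13 and 2, 10 and 1, and 18 and 3 with the block without pair 1, 2 or 3. Leaving out single libraries gave 3 to 16 lower and 0 (without shCtrl 2) to 2 higher calls and medians of −0.61 to −0.21. Over all genes, 876 lower and 543 higher calls became 1360 and 989 with no filter, 1599 and 1214 at 0.05, 1973 and 1422 with the block, 1370 and 2002 with the block and library size alone, 1394 and 997 with the block without pair 1, 1858 and 1173 without pair 3, and 449 to 932 and 246 to 681 without single libraries. Library size alone gave 609 lower and 796 higher calls over all genes, with a median of 0.103 against 0.029, and 4 and 1 among the 33 genes. Slc1a2 and Ndrg2 lost their calls with it (0.015 and 0.0265), with upper-quartile scaling, with at least 10 reads in every library and with filterByExpr. The block added 14 calls and changed no other. The cause of these shifts was not tested.

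None of the 18 changes of sign was called. Without single libraries, Slc7a10 ranged from −1.31 to 0.062, Slc39a12 from −0.72 to 0.21, Fgfr3 from −0.023 to 0.066, Clu from −0.15 to 0.14, Aldh1l1 from −0.039 to 0.30 and Ppp1r3c from −0.33 to 0.30, with the sign turned by leaving out shPla2g4e 1 for Slc7a10, shCtrl 3 or shPla2g4e 1 for Slc39a12, shPla2g4e 3 for Aldh1l1, shCtrl 1 or shPla2g4e 3 for Clu and Ppp1r3c, and shCtrl 1, shPla2g4e 2 or 3 for Fgfr3. With the block without pair 3, Fgfr3 was −0.036, Clu −0.050, Aldh1l1 −0.026 and Ppp1r3c −0.23. Ppp1r3c was also −0.036 with voom, −0.0052 with the block and −0.12 with the block without pair 1. Genes with under 100 reads in a library have the widest errors.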

Other observations

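Of 34 genes known to rise in reactive astrocytes, 32 were tested. Of these 1 was called lower (3.12%, near the 4.0% of all genes) and 5 higher (15.6%, beside 2.48% of all genes). With the replicate block 5 were called lower (15.6%, beside 9.02%) and 7 higher (21.9%, beside 6.5%). Their median log2 fold change was −0.05, and their summed level was 782 to 946 CPM in shCtrl and 814 to 1009 CPM in shPla2g4e. The sign of that median was not stable, and it ran from −0.17 without shCtrl 1 to 0.079 without shCtrl 3. The genes with the smallest p were Ptgs2, Emp1 and Cd44. All 3 were called higher, while 19 of the 32 genes tested had a log2 fold change below 0 (46.5% of all genes did). Ptgs2, the gene of cyclooxygenase-2, which active neurons also transcribe, was at 13.5, 6.44 and 14.4 CPM in shCtrl and at 74.7, 68.7 and 36.1 CPM in shPla2g4e (log2 fold change 2.38 ± 0.26, adjusted p = 1.73e-05, edgeR's quasi-likelihood test). Here shPla2g4e 3 was the library nearest to the controls, and no library left out removed the call.

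Emp1, a membrane protein gene, was at 19.9, 17.6 and 13.99 CPM in shCtrl and at 36.4, 37.6 and 25.4 CPM in shPla2g4e (0.95 ± 0.15, adjusted p = 5.43e-04). Cd44, the gene of a hyaluronan receptor, was at 36.1, 33.6 and 29.7 CPM in shCtrl and at 65.8, 77.9 and 41.3 CPM in shPla2g4e (0.90 ± 0.16, adjusted p = 0.00164, and 0.0112 without shCtrl 2 or without shCtrl 3). In all 3 genes the groups did not overlap and shPla2g4e 3 was the lowest knockdown library, whereas among the 33 astrocyte-enriched genes it was the highest knockdown library for 29. The 3 genes were higher in the knockdown, while 24 of the 33 had a log2 fold change below 0. In both cases shPla2g4e 3 thus mostly lay nearest to the controls. The difference between these patterns was not tested.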
